A study of Arabidopsis thaliana with 10 samples.

Results

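A set of 138 genes of the Arabidopsis thaliana shoot apex had lower transcript signals where the microRNA miR319b was overexpressed and higher signals where the transcription factor TCP4 was expressed in leaves. The members were chosen by their measured values on these same 10 arrays. All 4 arrays of the miR319b and octa groups had to lie below all 4 arrays of the Col and miR-3TCP groups, with a mean difference of at least 0.5 on the log2 scale. The mean of the 2 BLS>>TCP4 arrays also had to lie at least 0.5 above the mean of Col and miR-3TCP. Values were taken as log2(signal + 16), a scale that understates the change of dim probe sets. Of 13513 probe sets that list 1 gene, 157 met these numbers. From these, 5 genes named in the rule, 5 ribosomal protein genes, 7 genes of pentatricopeptide repeat proteins and 2 genes of tetrapyrrole synthesis were left out. The 138 members are distinct genes, each chosen on 1 probe set. The same numbers were met by 161 more probe sets that the table links to no gene or to more than 1, and these stay unnamed. Because the rule used these differences, they are given as a description, with no test.

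The CIN-TCP genes are a class of plant transcription factor genes that slow cell division and promote maturation as leaf cells leave the growing margin and base. Part of the class carries a target site for miR319, so raised miR319 removes their transcripts and leaves grow on for longer, with crinkled edges. Leaf maturation includes the building of chloroplasts from small proplastids, which needs many nuclear genes for plastid protein folding, protein import, RNA processing and electron transport.

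Arrays of vegetative apices from soil-grown plants in short days were made in 5 groups of 2, 1 array per sample. The Col group was the Col accession with no transgene named in its labels, sampled at 14 DAS, the age code of the labels. The miR-3TCP group carried 35S:miR-3TCP, where a synthetic microRNA driven by the broadly active 35S promoter is directed at TCP5, TCP13 and TCP17, also at 14 DAS. The miR319b group carried 35S:319b, which targets TCP2, TCP3, TCP4, TCP10 and TCP24 according to the design text, at 17 DAS. The octa group, at 18 DAS, was taken to be the design's plants with both microRNAs, so that each of the 8 CIN-TCP genes is a target. In the BLS>>TCP4 group, of the Ler accession and at 14 DAS, TCP4 was driven in leaves by the BLS promoter. How many transgenic lines were used, and whether the pair of samples in a group were grown apart, is not stated in the labels. The p-values therefore rest on a spread between samples that may be technical. Age cannot be told apart from miR319b, and the Ler accession cannot be told apart from the TCP4 transgene. Between octa and miR319b, age cannot be told apart from miR-3TCP.

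The arrays shared a median signal of 50, but mean signals were 191 and 198 in BLS>>TCP4 against 141 to 156 elsewhere. None of the 8 CIN-TCP genes has a listed probe set, so the altered genes were not analysed here. Of the tissue markers, CLV3, a stem cell peptide gene of the shoot meristem, had signals between 0.654 and 7.26 on all arrays and did not pass the filter on low values. RCA, the Rubisco activase gene of photosynthetic leaf cells, was the 1 listed of 5 leaf photosynthetic markers. Its signals were 2901 and 2992 in Col, 2787 and 2863 in miR-3TCP, 2927 and 2996 in miR319b, 2869 and 2780 in octa, and 6010 and 6275 in BLS>>TCP4. RCA varied little over the 8 arrays of the Col accession and was higher in BLS>>TCP4. PYK10, a marker of roots, had signals of 1828 to 2113 in the Col accession and of 992 and 1508 in BLS>>TCP4. None of the 4 epidermis, 3 trichome, 3 vascular or 4 flower markers has a listed probe set, and 3 of 6 stomatal lineage markers do. In BLS>>TCP4, SPCH, which starts that lineage, fell by 0.76 (adjusted p = 0.0407 by limma), where 10.5% of all probe sets were called lower. Its 2 arrays disagreed there, at 131 and 62.0, against 151 to 177 in Col and miR-3TCP. FMA, which ends the lineage, had a difference of 0.14 (adjusted p = 0.398 by limma). MUTE, which acts between SPCH and FMA, had signals of 0.854 to 9.69 in the Col accession and of 37.2 and 34.1 in BLS>>TCP4, below the filter on low values. The part of these marker differences in the members' values was not tested. In bulk apices, fewer cells of a type and less RNA per cell cannot be told apart.

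Over the 138 members the median difference was -0.65 for miR319b and octa against Col and miR-3TCP, which is 1.57-fold lower, with a range from -1.38 to -0.50. For BLS>>TCP4 against Col and miR-3TCP the median was 0.80, or 1.75-fold higher, and the range was 0.50 to 2.57. Over the 13648 probe sets that passed the filter on low values the same medians were -0.03 and 0.10. The fall alone was met by 349 of 13458 genes not left out (2.59%), the rise alone by 11.8% and the whole rule by 1.03%, and these shares only describe the choice. Among the genes that met the fall, 39.5% met the rise, 157 had a difference between -0.5 and 0.5 in BLS>>TCP4 and 54 were lower there by at least 0.5. The genes that met only the fall were not screened by hand for ribosomal and pentatricopeptide repeat proteins. Such genes were removed only where both parts were met, so the share of 39.5% may be too low. The TCP4 difference was larger than the loss difference in 99 members and smaller in 39, and the share over all genes was not counted. This order depended on the scaling. With quantile normalization, which gives all arrays the same spread, the median fall of the members was -0.60 and the median rise 0.59. Both sizes reached 1 in 7 members.

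**Figure D1:**
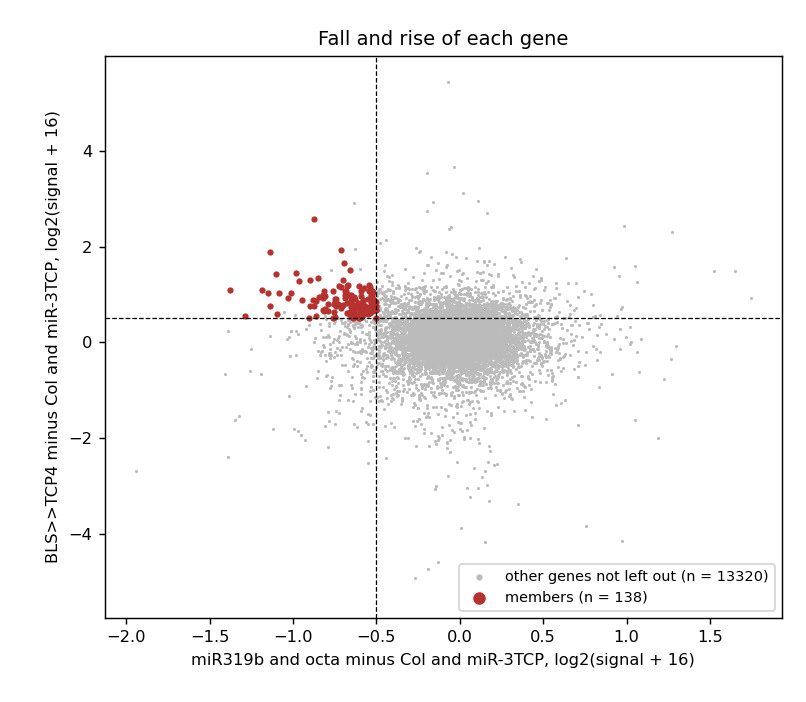
Each point is a gene, with the mean log2 difference between the miR319b and octa arrays and the Col and miR-3TCP arrays on the x axis and that between BLS>>TCP4 and the same Col and miR-3TCP arrays on the y axis. The dashed lines are the thresholds of 0.5, and the 138 members in red fill the upper left corner, reaching -1.38 and 2.57. Some grey points in that corner are genes whose arrays overlapped.

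RR16, a type-A response regulator gene that damps cytokinin signalling, came after only AT3G14760 when members were ranked by the smaller of their 2 differences. It is the only member found in the lists of genes linked to CIN-TCP activity used here. Its signals were 35.0 and 60.7 in Col and 37.4 and 78.6 in miR-3TCP. In miR319b they were 15.3 and 15.0, and in octa 14.7 and 15.3. In BLS>>TCP4 they were 126 and 212, so that the 3 levels did not overlap. The differences were -1.10 and 1.43 on the log2 scale.

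No other gene of that list met the rule. Of 24 hormone and growth genes, 5 had a listed probe set, and of the 4 that are not members none was lower in miR319b and octa by limma's test, beside 7.25% of all probe sets. The number with an unadjusted p under 0.05 and a negative difference was 1, ARR15, another type-A response regulator gene (-0.37 ± 0.14 SE, adjusted p = 0.136). JAG, which encodes a zinc finger protein of lateral organ growth, rose by 0.91 ± 0.11 (adjusted p = 0.00212), beside 2.36% of probe sets higher. In BLS>>TCP4 none of the 4 rose by limma, beside 21.2% of probe sets, and 1, NUB, a close relative of JAG, had an unadjusted p under 0.05 (0.40 ± 0.14, adjusted p = 0.0592). ARR15 fell by 0.85 and JAG fell by 0.66 (adjusted p = 0.00427 and 0.00565), beside 10.5% of probe sets. The fourth, HAT2, a homeobox gene of auxin response, passed neither test (0.35 and 0.45). The medians of the 4 genes were 0.30 and -0.13, beside -0.03 and 0.10 for all probe sets. OPCL1, the 1 listed of 10 jasmonate synthesis genes, fell by 1.02 in BLS>>TCP4 (adjusted p = 0.00597) and had a difference of 0.13 in miR319b and octa. None of the 6 boundary and leaf initiation genes has a listed probe set.

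Ranked by the smaller of both differences, the 24 leading members included 4 genes with a symbol, RR16, LrgB, NdhL and Cpn60beta2. The other 20 carry only a locus tag in the gene table, which names no product, so no role is given for them. AT3G14760 led the list and was dim, with signals of 25.6 and 30.8 in Col and 21.5 and 29.3 in miR-3TCP. Its signals were 4.76 and 4.11 in miR319b, 0.852 and 4.00 in octa, and 129 and 154 in BLS>>TCP4. It had the widest gap of all members between the lowest of the Col and miR-3TCP arrays and the highest loss array, 0.85 on the log2 scale, where the median gap was 0.33. Its loss signals lay under the offset of 16 and it did not pass the filter on low values, so its gap and its first rank depend on the offset. With an offset of 64 its fall was -0.43 and it was no member.

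AT5G44680 had signals of 147 and 158 in Col, 96.3 and 100 in miR-3TCP, 49.9 and 43.5 in miR319b, 41.5 and 45.5 in octa, and 270 and 291 in BLS>>TCP4. Its groups thus formed 4 levels, with miR-3TCP between Col and the loss groups. AT3G28220, with the largest fall of the members (-1.38), had 349 and 516 in Col, 270 and 688 in miR-3TCP, 113 and 97.2 in miR319b, 231 and 222 in octa, and 1165 and 738 in BLS>>TCP4. Here the octa arrays lay above the miR319b arrays, and the Col and miR-3TCP arrays overlapped.

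AT1G76110 had 109 and 108 in Col, 132 and 159 in miR-3TCP, 39.7 and 30.2 in miR319b, 63.9 and 64.4 in octa, and 248 and 304 in BLS>>TCP4. Both miR-3TCP arrays were above Col and both octa arrays above miR319b in this gene. AT1G33811 (-1.08 and 1.02) and AT1G62780 (-1.01 and 1.04) completed the members in which both differences reached 1. AT2G43590 had the largest rise over Col and miR-3TCP together, 2.57. Its signals were 37.5 and 25.9 in Col, only 3.18 and 5.61 in miR-3TCP, and 157 and 179 in BLS>>TCP4. Against Col alone its difference in BLS>>TCP4 was 1.96, below the 2.05 of AT5G55450. In the loss groups its signals were 1.21 and 0.662 in miR319b and 0.673 and 1.11 in octa.

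The 27 members that carry a symbol were sorted by known role after their values had been seen, so the sorting is a description. Products of 20 of them act in plastids. The share of plastid products among all genes with a symbol was not counted, and the 111 members with only a locus tag were not sorted. Nothing is therefore read from the count of 20. The falls of these 20 genes ranged from -1.28 to -0.50 and their rises from 0.50 to 1.44.

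NdhL and NdhN encode subunits of the thylakoid NDH complex, which returns electrons to the plastoquinone pool in cyclic electron flow around photosystem I. NdhL had signals of 231 and 285 in Col, 197 and 247 in miR-3TCP, 127 and 86.6 in miR319b, 126 and 150 in octa, and 564 and 668 in BLS>>TCP4. NdhN had 194 and 257 in Col, 205 and 252 in miR-3TCP, 145 and 132 in miR319b, 125 and 129 in octa, and 491 and 681 in BLS>>TCP4. The 2 subunit genes ran alike, with differences of -0.90 and 1.31 for NdhL and of -0.70 and 1.30 for NdhN.

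LrgB, which encodes the plastid glycolate and glycerate transporter of photorespiration, had 620 and 727 in Col and 544 and 767 in miR-3TCP. It had 336 and 296 in miR319b, 329 and 343 in octa, and 1726 and 1912 in BLS>>TCP4. Its levels in miR319b and octa overlapped, and its BLS>>TCP4 arrays stood 2.72-fold above Col and miR-3TCP.

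The genes of plastid protein folding, import and turnover numbered 7. Cpn60beta2 and Cpn60beta4 encode beta subunits of the chloroplast chaperonin that folds imported proteins such as Rubisco subunits. Cpn60beta2 had signals of 905 and 1059 in Col, 882 and 1169 in miR-3TCP, 493 and 696 in miR319b, 635 and 441 in octa, and 2034 and 1960 in BLS>>TCP4. Cpn60beta4 had 112 and 125 in Col, 122 and 144 in miR-3TCP, 63.3 and 80.0 in miR319b, 78.2 and 60.9 in octa, and 254 and 348 in BLS>>TCP4. In both genes the miR319b and octa arrays overlapped each other.

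SPP, the stromal peptidase that removes the transit peptides of imported proteins, had differences of -0.67 and 0.61. SECE1, a subunit of the Sec translocon of thylakoids, had -0.65 and 0.53, and CLPP4, a subunit of the plastid Clp protease, had -0.61 and 0.83. MAP1C and PDF1B encode a methionine aminopeptidase and a peptide deformylase, enzymes that act on the first residue of proteins made in organelles. MAP1C had signals of 583 and 879 in Col, 508 and 764 in miR-3TCP, 272 and 313 in miR319b, 228 and 254 in octa, and 813 and 1199 in BLS>>TCP4. Its loss was large (-1.28), but 1 BLS>>TCP4 array lay below the higher Col array. PDF1B had -0.76 and 0.50 and was the member nearest to the threshold of the rise.

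Among 4 genes of iron-sulphur assembly and thiol redox, CPNIFS, a plastid cysteine desulfurase that supplies sulphur for iron-sulphur clusters, had -0.50 and 0.52. HCF101, a scaffold protein that passes such clusters to photosystem I, had signals of 482 and 574 in Col, 550 and 629 in miR-3TCP, 378 and 374 in miR319b, 411 and 353 in octa, and 1160 and 1382 in BLS>>TCP4. NTRC, a plastid NADPH-thioredoxin reductase, had -0.66 and 0.59. CcdA, a thylakoid protein that carries reducing power into the lumen for cytochrome assembly, had -0.54 and 1.08. In HCF101 and CcdA the rise was thus larger than the fall, and in CPNIFS and NTRC they were close.

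CAF1, a splicing factor of plastid group II introns, had signals of 102 and 105 in Col, 112 and 111 in miR-3TCP, 62.0 and 76.3 in miR319b, 62.1 and 56.0 in octa, and 201 and 171 in BLS>>TCP4. ATAB2, which acts in the translation of plastid photosystem messages, had -0.54 and 0.72. FTSZ2-2, a tubulin-like protein of the ring that divides plastids, had signals of 181 and 184 in Col, 164 and 186 in miR-3TCP, 112 and 105 in miR319b, 125 and 119 in octa, and 325 and 272 in BLS>>TCP4. The Col and miR-3TCP arrays of FTSZ2-2 overlapped, and both octa arrays lay slightly above both miR319b arrays. LIL3:1, a light-harvesting-like protein that anchors enzymes of late chlorophyll synthesis, had -0.53 and 0.91. NOL, a chlorophyll b reductase of chlorophyll breakdown, had -0.61 and 0.55. THIC, the plastid enzyme that makes the pyrimidine part of thiamine, had -0.60 and 0.51.

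**Figure D2:**
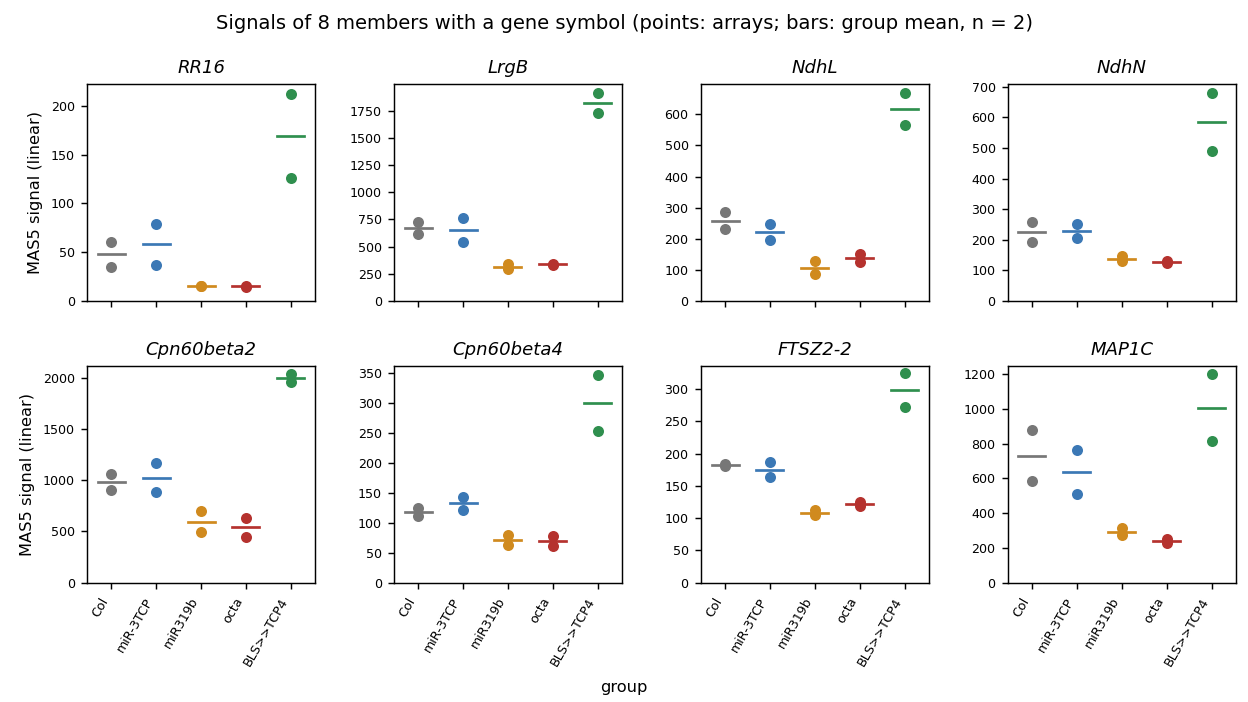
Linear signals of 8 members by group, with 1 point per array and a bar at the mean of 2 arrays. Signal axes start at 0. In each panel the miR319b and octa arrays lie below all Col and miR-3TCP arrays, and in MAP1C the lower BLS>>TCP4 array (813) lies below the higher Col array (879).

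The other 7 members with a symbol, RR16 among them, are not known for plastid work. EEL, a bZIP transcription factor gene of the abscisic acid response in seeds, was dim, with signals of 24.7 to 39.1 in Col and miR-3TCP, 13.5 to 23.2 in miR319b and octa, and 52.0 and 70.5 in BLS>>TCP4. AGL87, a MADS-box gene, had -0.55 and 0.59. The gene iqd21 encodes a protein of the calmodulin-binding IQ-domain family. Its signals were 257 and 249 in Col, 257 and 269 in miR-3TCP, 142 and 137 in miR319b, 140 and 140 in octa, and 415 and 416 in BLS>>TCP4. The arrays of a group lay close together in iqd21, and only 2 members had a wider gap between the loss arrays and the Col and miR-3TCP arrays.

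TRM25, of a family named for recruiting the microtubule-organising protein TON1, had -0.58 and 0.58. The serine carboxypeptidase-like gene scpl46 had -0.67 and 0.83. UGT76E11, a glucosyltransferase gene, had -0.58 and 0.88, with signals of 7.90 to 9.17 in miR319b and octa. In all, 134 members passed the filter on low values and 4 did not, UGT76E11, AT3G14760, AT2G43590 and AT5G55450.

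Both BLS>>TCP4 arrays lay above all 4 Col and miR-3TCP arrays in 130 members, where the share of all genes not left out was 28.8%. The rule asked for a higher mean on these same arrays, so nothing is read from this count. The arrays overlapped in the other 8, AT3G51870, AT1G75460, AT1G73655, MAP1C, SECE1, AT3G56330, AT1G56050 and PDF1B. AT3G51870 showed the disagreement of the BLS>>TCP4 arrays, with 995 and 425 against 298 to 440 in Col and miR-3TCP. Just inside the threshold of the fall lay CPNIFS (-0.5003), AT2G44760 (-0.501) and AT3G05350 (-0.502), and just outside it AT2G47390 (-0.499), AT4G28230 (-0.499) and AT3G59980 (-0.498). On the rise, PDF1B (0.501), AT1G56050 (0.502) and AT3G51140 (0.504) lay just inside, and YUC2, an auxin synthesis gene (0.498), AT5G28750 (0.496) and AT3G22150 (0.490) just outside. The genes just outside were not screened by hand for the ribosomal and pentatricopeptide repeat proteins that the rule leaves out. The smallest gap between the loss arrays and the Col and miR-3TCP arrays was 0.0046, in AT5G52190.

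The size of the rise depended on how the arrays were scaled. Of the members, 88 lay in the brightest of 5 equal classes of probe sets by mean level, where the median difference of all probe sets in BLS>>TCP4 was 0.23 against 0.05 in the next class. Those 88 members had a median rise of 0.77, and the 28 members in the next class had 0.81. After quantile normalization all 138 members were higher in BLS>>TCP4 and lower in miR319b and octa. They were chosen on these same arrays by differences of at least 0.5, so nothing is read from that count. The median rise became 0.59, the smallest 0.11, and 71 members still met the rule. NdhL, NdhN, LrgB, Cpn60beta4, RR16, CAF1 and FTSZ2-2 were among these 71, and of the 7 genes of plastid protein folding, import and turnover only Cpn60beta4 was. None of the 4 genes of iron-sulphur assembly and thiol redox was. HCF101 and CcdA kept rises of 0.75 and 0.79, and only their falls, -0.47 and -0.48, missed the threshold. NTRC missed on the rise (0.22) and CPNIFS on both parts (-0.45 and 0.37). The rise of RCA, which is no member, was 1.09 as deposited.

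**Figure D3:**
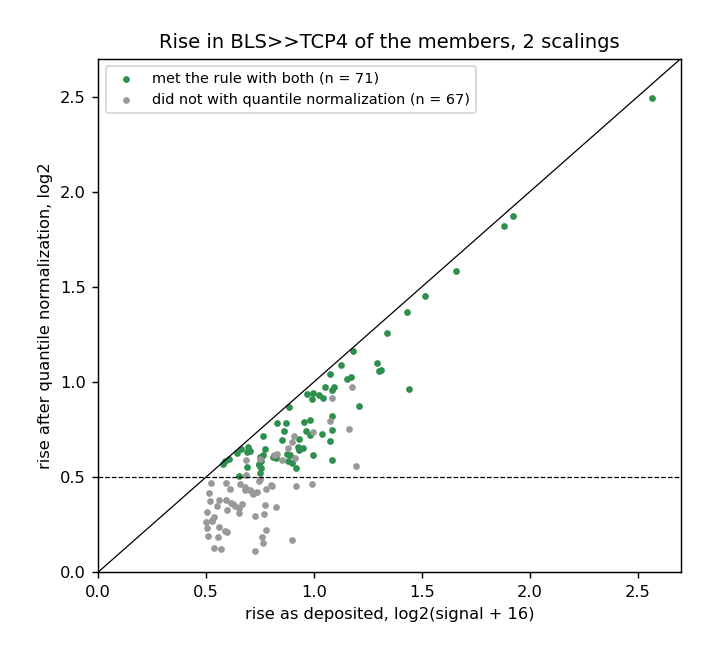
The rise of each of the 138 members in BLS>>TCP4 over Col and miR-3TCP, as deposited on the x axis and after quantile normalization on the y axis, both as log2 differences. Green points (71) met the rule with both scalings and grey points (67) did not after quantile normalization, either because the rise lay under the dashed line at 0.5 or because the part of the rule on the fall was not met. Nearly all points lie below the line of equal values.

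The differences of miR-3TCP from Col and of octa from miR319b were not set by the rule but were limited by it. A gene that miR-3TCP lowered to the loss level, or whose octa arrays reached the Col level, could not be a member. The shares of members below therefore follow in part from the choice and are given as a description beside those of all probe sets. No member was called in miR-3TCP against Col by limma (0 of 134 tested, beside 0.00733% of all probe sets), and 3 had an unadjusted p under 0.05, or 2.24%, beside 2.91% of all probe sets. These were AT5G44680 (-0.56 ± 0.13 SE, adjusted p = 1.00), AT1G70200 (0.39 ± 0.16) and AT1G76110 (0.37 ± 0.16). The largest difference of all 138 members was that of AT2G43590, which the filter on low values kept out of these tests. In limma's fit without the filter it was -1.22 ± 0.15 SE (unadjusted p = 3.19e-05, adjusted p = 0.197), with both miR-3TCP signals under the offset of 16. The median over the 134 members was 0.04 and 85 were positive, beside 0.003 and 50.9% positive over all probe sets. That median turned to -0.06 without Col replicate 1 and to -0.07 without miR-3TCP replicate 2, and it was 0.14 without Col replicate 2 and 0.16 without miR-3TCP replicate 1. Each of these fits leaves unlike replicates in Col and miR-3TCP, and replicate 2 was the higher in most members of both groups. The miR-3TCP arrays lay wholly above Col in 12 members, beside 18.7% of probe sets, and wholly below in 6, beside 19.3%.

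Adding miR-3TCP to miR319b was read from octa against miR319b. Octa was sampled at 18 DAS and miR319b at 17 DAS, so this comparison and the interaction also carry that age difference. Again 0 of 134 members were called, beside 0.0% of all probe sets, and 5 had an unadjusted p under 0.05, which is 3.73%, beside 9.83%. All 5 were higher in octa. They were AT1G76110 (0.66 ± 0.16 SE, adjusted p = 0.327), AT3G28220 (1.01 ± 0.37, adjusted p = 0.417), AT1G14580 (0.44 ± 0.16), AT1G49380 (0.30 ± 0.13) and AT1G12800 (0.35 ± 0.16). In limma's fit without the filter on low values, 5 members were higher and 2 lower at an unadjusted p under 0.05. AT5G55450, which the filter kept out, was lower in octa there (-0.61 ± 0.19 SE, unadjusted p = 0.0127, adjusted p = 0.493). The median over members was 0.02, with 76 positive, beside -0.04 and 43.6% positive over all probe sets. The octa arrays lay wholly above miR319b in 22 members, beside 17.4%, and wholly below in 26, beside 27.9%.

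The difference between these 2 effects, the interaction, gave 0 called members, beside 0.00733% of all probe sets, and 1 with an unadjusted p under 0.05, AT5G44680 (0.49 ± 0.18 SE, adjusted p = 0.692), beside 7.14%. Without the filter, AT2G43590 had an interaction of 1.21 ± 0.22 (adjusted p = 0.757 by limma) and AT5G55450 one of -0.86 ± 0.27 (adjusted p = 0.794). The median over members was -0.03, beside -0.04 for all probe sets. The median SE of the members was 0.17 in each of the first 2 comparisons. These tests do not show that the members are the same in the groups compared.

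Within groups the members moved together between replicates in some groups and not in others, which the rule did not ask for. In Col, replicate 2 lay above replicate 1 in 116 of 138 members with a median difference of 0.21, beside 53.6% of probe sets and 0.02. In miR-3TCP it did so in 127 with a median of 0.25, beside 50.7% and 0.003. In miR319b and in octa the count was 67 each, with medians of -0.01 and -0.01, beside 50.4% and 47.7%. In BLS>>TCP4 it was 91, with a median of 0.15, beside 54.8%. RR16 was an example, with its higher signal in replicate 2 of Col, miR-3TCP and BLS>>TCP4. What set the replicates apart was not tested.

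**Figure D4:**
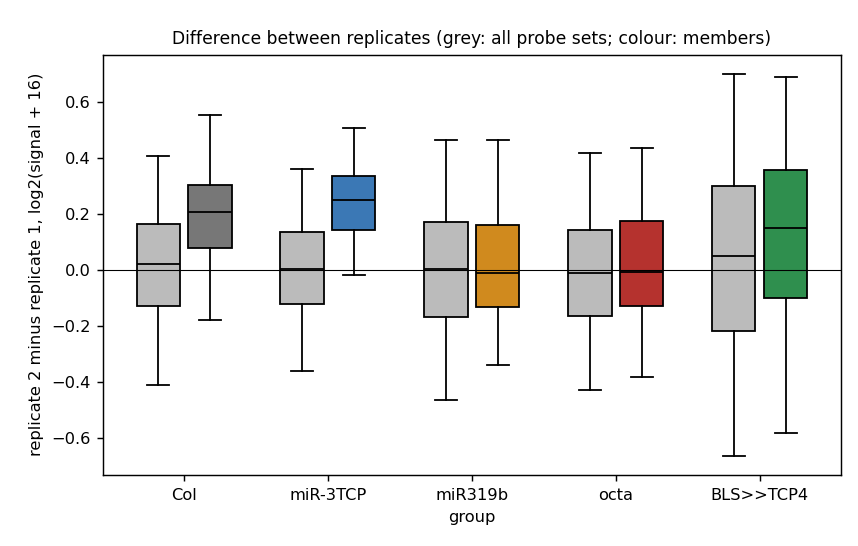
Boxes show the log2 difference between replicate 2 and replicate 1 in each group, in grey for the 13648 probe sets past the filter and in colour for the 138 members. Lines in the boxes are medians, boxes span the quartiles and whiskers the 5th to 95th percentiles. The member medians are 0.21 in Col and 0.25 in miR-3TCP, and -0.01 in miR319b and octa.

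**Figure D5:**
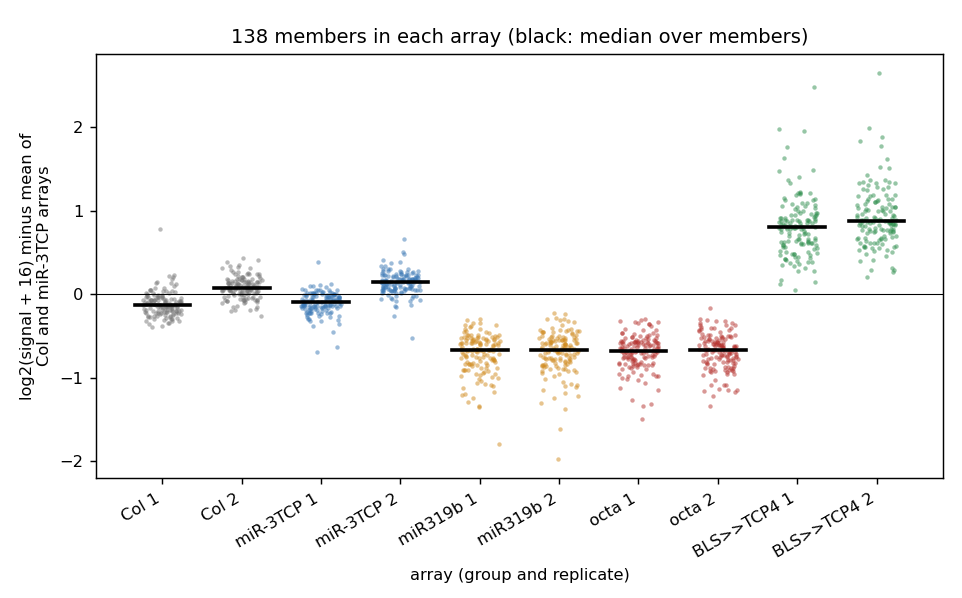
Each point is a member on 1 array, as log2(signal + 16) minus the mean of that member over the 4 Col and miR-3TCP arrays, and black bars are medians over the 138 members. The medians lie at -0.12 and 0.08 in Col, -0.09 and 0.15 in miR-3TCP, -0.67 and -0.66 in miR319b, -0.68 and -0.67 in octa, and 0.80 and 0.87 in BLS>>TCP4.

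The rule was also applied to the 5 replicate 1 arrays alone and then read on the replicate 2 arrays. Genes left out by hand had been picked on both replicates, so the replicate 2 arrays were not wholly outside this choice. Genes that met the rule only on a single replicate were not screened by hand for ribosomal and pentatricopeptide repeat proteins. Of 111 genes chosen in this way, 86 had a mean fall of at least 0.5 on the replicate 2 arrays, beside 4.81% of all genes not left out. A mean rise of at least 0.5 was also met by 86, beside 15.2%. The full rule was met there by 66 (59.5%), beside 1.43% of all genes not left out. The reverse choice gave 193 genes on the replicate 2 arrays. Of these, 86 met the fall (beside 2.85%) and 152 the rise (beside 15.5%) on the replicate 1 arrays. The same 66 met the full rule on those (34.2%, beside 0.825%), since both directions count the genes that met it on each replicate. The labels do not state whether the replicates were grown apart. Age and accession differed between groups alike in both replicates, and their part in these shares was not tested.

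One member gene, AT1G01320, has a further probe set that did not behave like the one chosen. The member probe set had signals of 720 to 787 in Col and miR-3TCP, 488 to 589 in miR319b and octa, and 1597 and 1069 in BLS>>TCP4. The other probe set had 165 to 262, then 19.0 to 144, and 164 and 17.2 in BLS>>TCP4, giving differences of -1.35 and -1.62. The probe sets thus shared the fall and opposed each other in BLS>>TCP4, where the accession differs.

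By the TAIR10.1 gene table, members lay on all 5 nuclear chromosomes, with 36 on chromosome 1, 22 on 2, 36 on 3, 17 on 4 and 27 on 5. Those on chromosome 3 were 26.1% of members against 20.4% of genes not left out, and those on chromosome 4 were 12.3% against 14.5%. Of 5816 neighbouring pairs of genes measured here, 2 pairs were both members, AT1G22690 with AT1G22700 and AT1G26220 with Cpn60beta4. In addition, the members AT1G11860 and AT4G12980 lie next to AT1G11850 and STOMAGEN, genes that met the numbers and that the rule leaves out. AT1G11860 had signals of 1339 to 1630 in Col and miR-3TCP, 978 to 1041 in miR319b and octa, and 3433 and 3365 in BLS>>TCP4. Its 3 levels did not overlap.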

How the data were processed

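Total RNA was hybridised to Affymetrix arrays. The deposited intensity values are linear probe set signals. The submitters' processing notes name MAS5, with no version or settings, and every array has a median of 50. Probe sets were named through the platform annotation and a RefSeq gene table (TAIR10.1): of 22746 other than 64 AFFX controls, 13513 list 1 gene, 503 several and 8730 none, and 13436 of the first matched the table. The table gives no product names, so 12 locus tags of ribosomal and pentatricopeptide repeat proteins were left out from background knowledge, only among genes that met the numbers. Differences are on log2(signal + 16). One model per probe set (limma 3.58.1 under R 4.3.3, moderated with a mean-variance trend) was fitted to all 10 arrays, 13648 probe sets at or above the 40th percentile of mean level, with Benjamini-Hochberg adjusted p under 0.05 as a call, after being tested on simulated data. The number of arrays limits the precision. Members and lists were chosen with earlier results of these data known. Genes are named by rule: the 24 of largest smaller difference, list genes, genes at the thresholds, neighbours and, added since classes by product could not be made, all members with a symbol. Alternatives were pseudocounts of 1 and 64, quantile normalization, other thresholds and filters, other groups, the replicate number as a block and leaving out each array. No sequences were given, so none are shown.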

Additional observations from a re-analysis of the deposited data

How the results depend on the processing

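The count of 138 members was 202 with a pseudocount of 1, 71 with a pseudocount of 64, 71 with quantile normalization, 28 with thresholds of 0.75, 401 with thresholds of 0.25, 182 with octa alone against Col alone, and 120 to 159 when each array was left out in turn. Genes that met the rule only under an alternative were not screened by hand for ribosomal and pentatricopeptide repeat proteins. The alternative counts may hold some of these. The median fall was -0.53 with a pseudocount of 64 and -0.69 to -0.62 without single arrays. The median rise was 0.59 with quantile normalization and 0.76 to 0.87 without single arrays. Choice on replicate 1 gave 66 genes on replicate 2, and 33 with quantile normalization. The tested counts for miR-3TCP against Col, octa against miR319b and the interaction were 0 under all alternatives run by limma, with smallest adjusted p-values from 0.156 to 1.00 and at most 8 members at an unadjusted p under 0.05. With the replicate number as a block they were also 0. Replicate numbers were not taken to pair arrays, since the replicate differences of groups correlated between -0.40 and 0.45. The 0.45 was that of Col with miR-3TCP, however, and the -0.40 that of miR319b with octa. The block gave 1 replicate effect to all 5 groups, so a replicate effect shared by Col and miR-3TCP alone was not fitted. The median interaction over members ranged from -0.15 to 0.08 without single arrays and so has no settled sign. Both ends came from leaving out a miR-3TCP array, which leaves unlike replicates in Col and miR-3TCP.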
